A study of Mus musculus with 8 samples.

Results

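The 7 MHC class II genes H2-Aa, H2-Ab1, H2-Eb1, H2-DMa, H2-DMb1, Cd74 and Ciita were taken by name from the gene symbols of the count table, which holds 31894 genes with an identifier, and were compared between E-cadLO and E-cadHI cells within each mouse. All 7 passed the filter on low counts and are among the 13598 genes tested. The cells were sorted by fluorescence activated cell sorting (FACS) from breast cancer brain metastases (BCBM) of 4 FVB mice, numbered 57, 58, 67 and 70 and labelled wild type (adult females where the methods describe FVB hosts), and each mouse gave 1 bulk mRNA library of E-cadHI and 1 of E-cadLO cells. Both populations come from the same tumors, which grew after intracranial injection of organoid cells. The organoids derive from mammary tumors, passaged through the brain, of the PyMT mouse, a model in which the polyoma middle T antigen is expressed from the mouse mammary tumor virus promoter. All tumor cells carry the E-cad-mCFP reporter, in which E-cadherin is joined to a cyan fluorescent protein, and the labels name no treatment. The text of the methods describes a dye for dead cells and the CFP signal, names no leukocyte marker for the sort, and reports the purity check on the CFP positive cells only. In the paper the organoid cells were also labelled with H2B-Dendra2, a fluorescent protein in the nucleus. The gates are in a supplementary figure, described as sorting tumor cells, and the text does not say whether they used H2B-Dendra2.

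MHC class II molecules are pairs of an alpha and a beta chain that present peptides from endocytosed protein to CD4+ T cells. Dendritic cells, B cells and macrophages are their classical source, and microglia and some tumor cells begin to express them after exposure to interferon gamma. The chains meet the invariant chain Cd74 in the endoplasmic reticulum, the H2-DM dimer later exchanges the last fragment of Cd74 for peptide, and the coactivator Ciita switches the whole group on by joining factors already bound at the X and Y boxes of each promoter.

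Total counts ranged from 9102781 to 15769200 per library, so that 3 counts, used here as the floor, were worth 0.201 to 0.348 CPM, the counts scaled to the same TMM-normalized library size. The transcript of E-cadherin itself, Cdh1, was at 114, 132, 93.2 and 107 CPM in the E-cadHI libraries of mice 57, 58, 67 and 70 and at 71.4, 181, 84.2 and 59.0 CPM in their E-cadLO libraries, so that in mouse 58 it was higher in the library labelled E-cadLO. The E-cadLO library of mouse 57 stood apart from the other E-cadLO libraries. It held 496 CPM of the fibroblast collagen Col1a1, against 1.401 to 8.50 in the other 7 libraries, and 0 counts of the pan-leukocyte gene Ptprc. For each of the 7 genes, a fit without this library or without mouse 57 is therefore also given.

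The genes of the I-A and I-E chains and of H2-DM lie in the MHC on mouse chromosome 17, whereas Cd74 and Ciita lie on other chromosomes. In the GRCm38 coordinates of the count table, with strands from GENCODE M21, H2-Aa spans chr17:34282744-34287827 on the minus strand and H2-Ab1 chr17:34263209-34269418 on the plus strand. H2-Eb1 spans chr17:34305877-34316199, H2-DMa chr17:34135182-34139101 and H2-DMb1 chr17:34153072-34160230, all on the plus strand. Ciita spans chr16:10488178-10527564 on the plus strand. Of the stretches of 65 bases, the read length, in the annotated transcripts of H2-DMb1, 17.97% also occur in those of another gene, mostly H2-DMb2, so that the counts of these neighbours are uncertain against each other. For H2-DMa the share was 7.84%, mostly with Brd2, and its counts carry the same uncertainty. H2-Eb1 is overlapped by the antisense gene Gm20513, Cd74 by Mir5107 and Ciita by Dexi, and whether the counting used strand is not given in the sources used here. The reference genome is that of C57BL/6, and the class II genes differ in sequence between mouse strains. The effect of this on mapping reads of FVB cells was not tested.

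The sequences before 2 of the genes are shown because the X and Y boxes by which Ciita acts lie there. RefSeq promoter entries (GRCm38.p6) were found for 4 of the 7 genes, H2-Aa, H2-Eb1, H2-DMa and H2-DMb1. Capitals mark GATTGG, the letters searched for the Y box, and GNAACT (N is any base), a stretch seen in these promoters and searched in all others only after their letters had been read. The strand shown is that of the gene, 5′ to 3′, and each sequence ends at the last base before the RefSeq start. For both genes this start differs by a few bases from that of the span given above. For H2-Aa it is the 250 bases of chr17:34287824-34288073 (minus strand) and for H2-Eb1 the 146 bases of chr17:34305721-34305866 (plus strand), which leave out an exon of Gm20513.
H2-Aa: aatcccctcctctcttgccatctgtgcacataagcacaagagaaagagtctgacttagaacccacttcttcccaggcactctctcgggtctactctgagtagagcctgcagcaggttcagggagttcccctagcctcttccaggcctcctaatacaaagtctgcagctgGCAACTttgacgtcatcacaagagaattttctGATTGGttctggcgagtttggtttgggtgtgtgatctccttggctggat
H2-Eb1: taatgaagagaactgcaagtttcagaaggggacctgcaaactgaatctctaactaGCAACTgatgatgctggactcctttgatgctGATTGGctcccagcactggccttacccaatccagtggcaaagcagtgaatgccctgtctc

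In H2-Aa the Y box letters began 49 bases before the start, and GNAACT stood 32 bases before them. In H2-Eb1 the Y box letters began 60 bases before the start and GNAACT stood 31 bases before them, and in H2-DMb1 the values were 62 and 32 bases. The H2-DMb1 entry, chr17:34152941-34153190, overlaps the span given above, which begins at 34153072. Its Y box letters and GNAACT lie inside that span. Neither of the 2 entries for H2-DMa held GNAACT within 40 bases before GATTGG. Both entries, chr17:34122582-34122831 and chr17:34125268-34125517, lie well before the span of H2-DMa given above. The sequence directly before that span was therefore not searched. This pairing was found in 0.530% of 32851 RefSeq promoters, each searched from 250 bases before to 50 bases after the start. On either strand, GATTGG alone was found in 16.1% and GNAACT alone in 42.8% of them. The longer X box consensus, present in 3.94% of all promoters on either strand, was found in the H2-DMb1 entry and, on the opposite strand, in 1 of the H2-DMa entries, and not in those of H2-Aa and H2-Eb1. These are matches of letters and no measurement of binding.

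All 7 class II genes had a fitted fold change above 0, toward E-cadLO cells, and none passed the quasi-likelihood test of edgeR at an adjusted p under 0.05, with p-values adjusted by Benjamini-Hochberg over 13598 genes. In this fit without the mouse as a replicate block 0% of all genes passed in the E-cadLO direction, while 55.1% of all genes had a fold change above 0. Before adjustment, 0 class II genes had a p under 0.05, beside 1109 genes on the E-cadLO side (8.16%) and 790 on the E-cadHI side (5.81%). The fitted log2 fold change was above 1 for 6 of the 7 class II genes, the exception being Ciita, and for 15.3% of all genes tested. The median over the class II genes was 1.41, beside 0.06 over all genes tested. DESeq2 without the block passed no class II gene either, with 2.48% of the genes that have an adjusted p higher in E-cadLO cells. For none of the 7 genes did the E-cadLO libraries all lie above the E-cadHI libraries, which was so for 3.9% of all genes.

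When the mouse entered the fit as a replicate block, edgeR still passed none of the 7 genes, and it passed 0.728% of all genes in the E-cadLO direction. H2-Aa, H2-Eb1, H2-DMa and Cd74 had an unadjusted p under 0.05 in this fit, 4 of 7 genes beside 12.3% of all genes, and none had one in the other direction, in which 7.33% of all genes did. DESeq2 with the replicate block passed Cd74 alone, beside 6.77% of the genes with an adjusted p. Within the mice, H2-Aa, H2-Eb1 and Cd74 were higher in E-cadLO cells in 4 of 4 mice, H2-Ab1, H2-DMa and H2-DMb1 in 3 and Ciita in 2. A higher level in all 4 mice was seen for 3 of the 7 genes and for 16.8% of all genes tested. When mouse 57 was set aside, 5 of the 7 genes were higher in E-cadLO cells in each of the other mice, beside 22% of all genes.

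**Figure D1:**
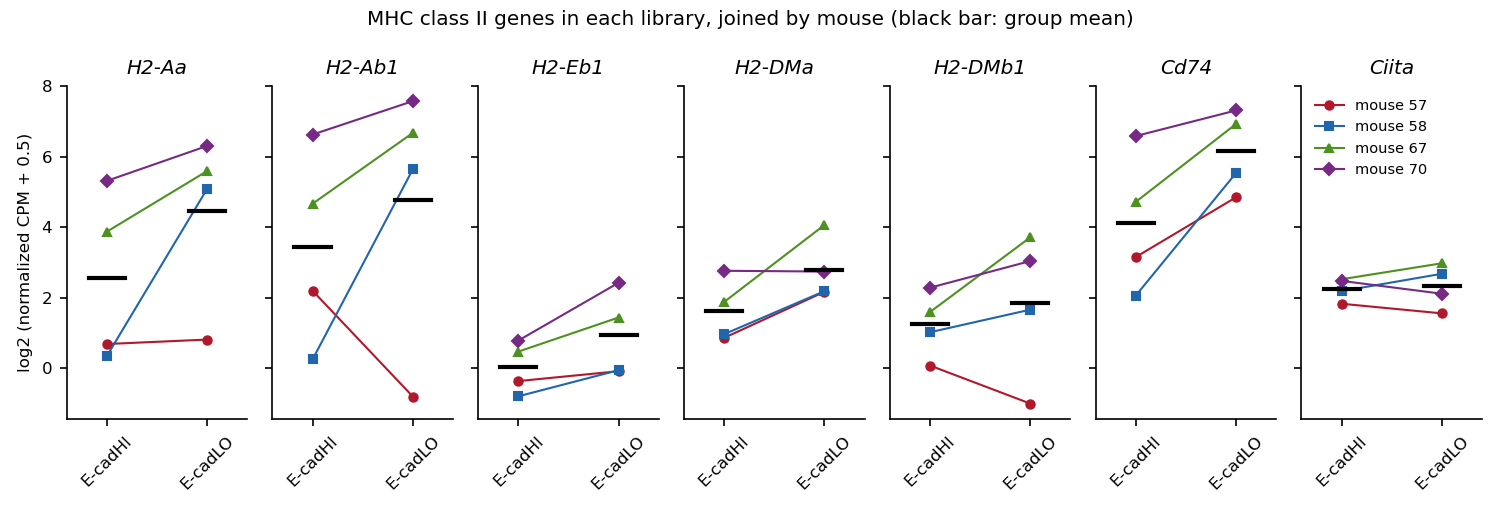
Each panel plots 1 gene as log2 (normalized CPM + 0.5) in the E-cadHI and E-cadLO library of each mouse, joined by a line, with the group mean as a black bar. The lines of mice 58, 67 and 70 rise for H2-Aa, H2-Ab1, H2-Eb1, H2-DMb1 and Cd74, while in mouse 57 those of H2-Ab1 and H2-DMb1 fall and that of H2-Aa is nearly level.

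H2-Aa, the alpha chain of the I-A molecule, was at 1.11, 0.766, 14.2 and 39.3 CPM in the E-cadHI libraries of mice 57, 58, 67 and 70. In the E-cadLO libraries of the same mice it was at 1.26, 33.4, 47.8 and 78.6 CPM. The E-cadLO library was above the E-cadHI library of its own mouse each time, but the groups overlapped, since the E-cadLO library of mouse 57 lay below 2 of the E-cadHI libraries. The log2 fold change was 1.55 (SE 1.26, adjusted p = 0.553, edgeR) and 1.94 with the replicate block (SE 0.73, adjusted p = 0.217). With the block and without mouse 57 it was 2.24 (SE 0.60, adjusted p = 0.0815, edgeR). Within mice the ratio of normalized levels was 43.6-fold in mouse 58 (95% counting interval 23.4 to 91.9), 3.38-fold in mouse 67 (2.87 to 3.98) and 2.0-fold in mouse 70 (1.79 to 2.24), and in mouse 57 the interval of the 1.13-fold ratio (0.538 to 2.40) held no difference. These exact intervals cover counting error only, since copies of a molecule made by PCR are not independent.

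H2-Ab1, the beta chain that pairs with H2-Aa, was at 4.10, 0.690, 24.9 and 98.5 CPM in the E-cadHI libraries. Its E-cadLO libraries were at 0.0741, 49.5, 102 and 191 CPM, in the same order of mice. The library of mouse 57 holds 1 count of the gene and was the lowest of all 8, while the E-cadLO library of mouse 70 was the highest. Its log2 fold change was 1.42 (SE 1.499, adjusted p = 0.649, edgeR), with a 95% interval from -1.95 to 4.79. With the replicate block it was 1.52 (SE 1.22, adjusted p = 0.502, edgeR). With the block and without mouse 57 it was 2.40 (SE 0.65, adjusted p = 0.0837, edgeR). In mouse 58 the level of H2-Ab1 was 71.8-fold higher in E-cadLO cells (counting interval 37.5 to 158), in mouse 67 4.09-fold (3.63 to 4.62) and in mouse 70 1.94-fold (1.81 to 2.08). In mouse 57 the direction was the opposite, with 59 counts in E-cadHI and 1 count in E-cadLO cells, a 55.4-fold lower level whose counting interval ran from 9.56 to 2223. In the fit without the block, leaving out only the E-cadLO library of mouse 57 gave a log2 fold change of 1.81 (adjusted p = 0.528, edgeR). The libraries of mouse 70 moved it more, to 3.09 without its E-cadHI and 0.68 without its E-cadLO library.

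The 2 chains of I-A parted in that library. H2-Ab1 had 0.90 to 3.69 counts for each count of H2-Aa in the 4 E-cadHI libraries and 1.48 to 2.43 in the E-cadLO libraries of mice 58, 67 and 70. In the E-cadLO library of mouse 57 there were 17 counts of H2-Aa and 1 of H2-Ab1, a ratio of 0.0588.

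H2-Eb1, the beta chain of the I-E molecule, had few counts. It was at 0.278, 0.0766, 0.889 and 1.23 CPM in the E-cadHI libraries and at 0.445, 0.464, 2.22 and 4.88 CPM in the E-cadLO libraries. Each E-cadLO library was above the E-cadHI library of its mouse, although the group ranges overlapped, with 1 to 70 counts behind these values. The log2 fold change was 1.70 (SE 0.996, adjusted p = 0.445, edgeR). It was 1.55 with the replicate block (SE 0.61, adjusted p = 0.226, edgeR) and 1.76 with the block but without mouse 57 (SE 0.68, adjusted p = 0.223). The ratio was beyond counting error in mouse 67 (2.49-fold, 1.25 to 5.30) and in mouse 70 (3.98-fold, 2.22 to 7.65). In mouse 58, with 1 and 4 counts, it was 6.06-fold with an interval from 0.599 to 298, and in mouse 57, with 4 and 6 counts, 1.60-fold with an interval from 0.379 to 7.70.

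H2-DMa, the alpha chain of the H2-DM peptide editor, was at 1.32, 1.46, 3.19 and 6.30 CPM in the E-cadHI libraries. Its level in the E-cadLO libraries was 4.00, 4.06, 16.2 and 6.20 CPM. It was higher in E-cadLO cells in mice 57, 58 and 67 and nearly equal in mouse 70, where the E-cadHI library was the second highest of all 8. The log2 fold change was 1.32 (SE 0.67, adjusted p = 0.398, edgeR) and 1.35 with the replicate block (SE 0.50, adjusted p = 0.213). Leaving out mouse 57 in the block fit lowered it to 1.24 (SE 0.53, adjusted p = 0.268, edgeR). The ratio was 3.03-fold in mouse 57 (counting interval 1.77 to 5.41), 2.79-fold in mouse 58 (1.55 to 5.16), 5.10-fold in mouse 67 (3.67 to 7.23) and 0.984-fold in mouse 70 (0.713 to 1.36).

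H2-DMb1, a beta chain of the same editor, was at 0.556, 1.53, 2.52 and 4.38 CPM in the E-cadHI libraries. In the E-cadLO libraries it had 0 counts in mouse 57 and was at 2.67, 12.6 and 7.74 CPM in mice 58, 67 and 70. The E-cadLO library was the higher of its mouse in 3 mice and the lower in mouse 57, and the groups overlapped. In mouse 57, with 8 counts, the E-cadHI level was 2.50 times the floor of 3 counts in the E-cadLO library. The exact 95% counting interval on both counts begins at a 1.60-fold lower level in E-cadLO cells. The ratio was beyond counting error toward E-cadLO cells in mouse 67 (5.01-fold, 3.46 to 7.45) and in mouse 70 (1.77-fold, 1.26 to 2.52), but not in mouse 58 (1.74-fold, 0.914 to 3.34). The log2 fold change was 1.36 (SE 1.18, adjusted p = 0.575, edgeR) and 0.66 with the replicate block (SE 0.88, adjusted p = 0.695). Without the E-cadLO library of mouse 57 it was 1.76 (adjusted p = 0.425, edgeR without the block). In mouse 57 the alpha and the beta chain of H2-DM thus went in opposite directions, as the E-cadLO library held 54 counts of H2-DMa and 0 of H2-DMb1.

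Cd74 (chromosome 18), the invariant chain that fills the peptide groove until the endosome is reached, was at 8.41, 3.68, 25.9 and 95.7 CPM in the E-cadHI libraries. In the E-cadLO libraries it was at 28.4, 46.0, 121.5 and 159 CPM. It was the higher of the pair in all 4 mice, and the groups overlapped only because the E-cadHI library of mouse 70 lay above the E-cadLO libraries of mice 57 and 58. The log2 fold change was 1.41 (SE 0.92, adjusted p = 0.481, edgeR). With the replicate block it was 2.04 (SE 0.42, 95% interval 1.05 to 3.02), with an adjusted p of 0.0854, which misses the threshold. DESeq2 with the replicate block gave 2.08 (SE 0.40) with an adjusted p of 1.778e-05, which is the one fit over all 8 libraries in which a class II gene passed. Its ratio was beyond counting error in every mouse, at 3.37-fold in mouse 57 (2.74 to 4.18), 12.5-fold in mouse 58 (9.26 to 17.3), 4.70-fold in mouse 67 (4.19 to 5.29) and 1.66-fold in mouse 70 (1.54 to 1.78). Without the block, leaving out 1 library moved the log2 fold change of Cd74 between 0.99 (without the E-cadLO library of mouse 70) and 2.79 (without its E-cadHI library). When mouse 57 was left out of the edgeR fit with the replicate block, Cd74 passed with a log2 fold change of 2.06 (SE 0.43, adjusted p = 0.0326). In that fit 449 of the 13905 genes tested passed, and Cd74 was the only 1 of the 7 class II genes among them.

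Ciita, the coactivator on which transcription of the other 6 genes is known to depend, was at 3.06, 4.06, 5.26 and 5.08 CPM in the E-cadHI libraries. Its E-cadLO libraries were at 2.45, 5.92, 7.38 and 3.83 CPM. The E-cadLO libraries spread beyond the E-cadHI libraries on both sides, with the E-cadLO level above the E-cadHI level in mice 58 and 67 and below it in mice 57 and 70. The log2 fold change was 0.16 (SE 0.45, adjusted p = 0.870, edgeR), and its 95% interval from -0.84 to 1.17 includes a doubling of the level. In the block fit without mouse 57 the log2 fold change was 0.19 (SE 0.44, adjusted p = 0.868, edgeR). Only the ratio of mouse 67 was beyond counting error (1.403-fold, 1.03 to 1.92). Between the lowest and the highest library Ciita spanned 2.45 to 7.38 CPM, while Cd74 spanned 3.68 to 159 CPM and H2-Ab1 0.0741 to 191 CPM. Ciita was detected with 33 to 110 counts in every library, including those in which H2-Ab1 had 1 to 9 counts.

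**Figure D2:**
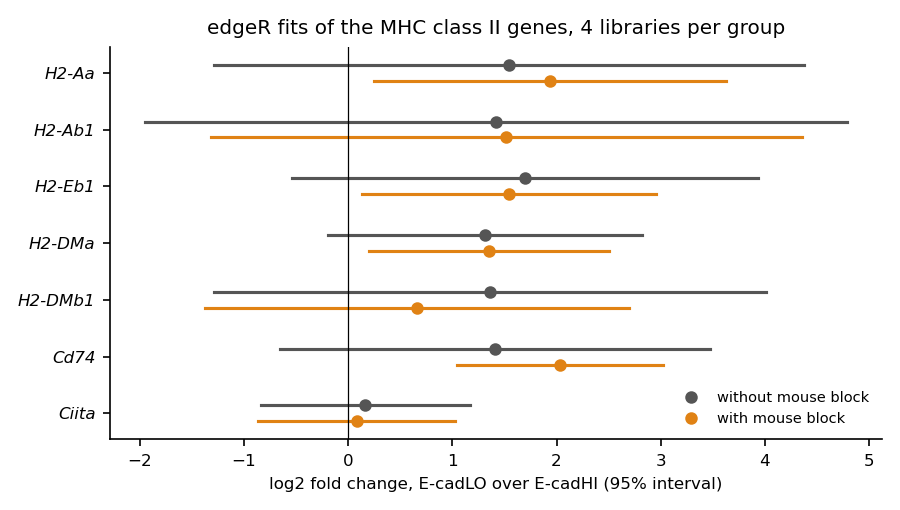
Points are log2 fold changes of E-cadLO over E-cadHI cells from edgeR and lines their 95% intervals, without (grey) and with (orange) the mouse as a replicate block. Every grey interval includes 0, and with the block the intervals of H2-Aa, H2-Eb1, H2-DMa and Cd74 lie above 0 before adjustment.

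The size of the difference varied between mice. On CPM plus 0.5, the median log2 ratio over the 7 genes was 0.13, 1.22, 2.01 and 0.76 for mice 57, 58, 67 and 70, while that over all genes was at most 0.07 in any mouse. All 7 ratios of mouse 67 were beyond counting error toward E-cadLO cells, as were 5 of mouse 70 and 4 of mouse 58. In mouse 57, 2 were above it (H2-DMa and Cd74), 2 were below it (H2-Ab1 and H2-DMb1) and 3 were not resolved. Over the 28 ratios, 18 were higher, 2 lower and 8 not resolved. These counts were not made for the other genes tested, so how usual they are cannot be told. Mouse 58 held the steepest ratios of H2-Aa, H2-Ab1 and Cd74, and its E-cadHI library was the lowest of the 4 for these 3 genes.

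**Figure D3:**
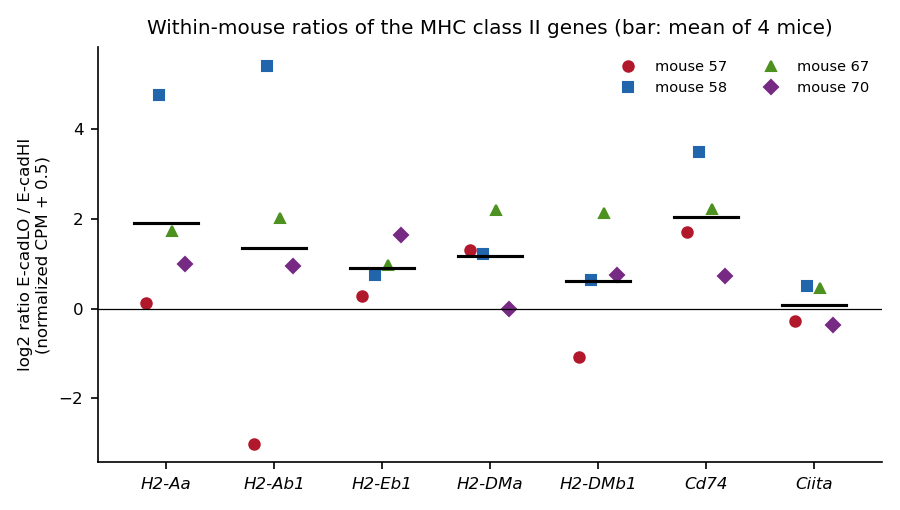
Each point is the log2 ratio of E-cadLO to E-cadHI within 1 mouse on normalized CPM + 0.5, by gene, and the bar is the mean of the 4 mice. H2-Aa and H2-Ab1 spread from 0.13 to 4.74 and from -3.00 to 5.39, whereas Ciita stayed between -0.36 and 0.49.

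Mice also differed in both of their populations. The summed level of the 7 genes was 18.8, 12.3, 76.8 and 251 CPM in the E-cadHI libraries of mice 57, 58, 67 and 70 and 36.6, 142, 310 and 451 CPM in their E-cadLO libraries. The sum was higher in E-cadLO cells in each mouse, and the E-cadHI library of mouse 70 exceeded the E-cadLO libraries of mice 57 and 58.

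Per kilobase of exon, Cd74 was the highest of the group, with a median over the 8 libraries of 22.2 CPM per kb, followed by H2-Ab1 (14.5), H2-Aa (6.26), H2-DMb1 (1.54), H2-DMa (1.17), Ciita (0.479) and H2-Eb1 (0.348). The ranges of neighbours in this order overlapped, since Cd74 ran from 2.19 to 94.5 CPM per kb, H2-Ab1 from 0.0289 to 74.2 and H2-Aa from 0.202 to 20.7. H2-DMb1, H2-DMa and Ciita ran from 0 to 7.51, from 0.383 to 4.71 and from 0.256 to 0.774, and H2-Eb1 from 0.0394 to 2.51. Cd74 was among the highest 3 in all 8 libraries. Where the longest coding transcript was used as the length in place of all exons, H2-Ab1 had the highest median (30.7 CPM per kb, Cd74 26.4, H2-Aa 21.1).

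Cd74 was set against the I-A chains as a share of their joint counts, because the invariant chain and the chains it guards are usually made together. Its share was 61.7% (exact 95% interval 54.5 to 68.6), 71.6% (59.3 to 82.0), 39.8% (36.6 to 43.2) and 41.0% (39.1 to 42.9) in the E-cadHI libraries of mice 57, 58, 67 and 70. In the E-cadLO libraries it was 95.5% (93.0 to 97.3), 35.7% (32.9 to 38.6), 44.8% (43.3 to 46.4) and 37.1% (35.9 to 38.3). The shares of the other E-cadLO libraries and of E-cadHI mice 67 and 70 lay between 35.7% and 44.8%, and the E-cadLO library of mouse 57 was above all others, with 383 counts of Cd74 beside 18 of H2-Aa and H2-Ab1 together.

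**Figure D4:**
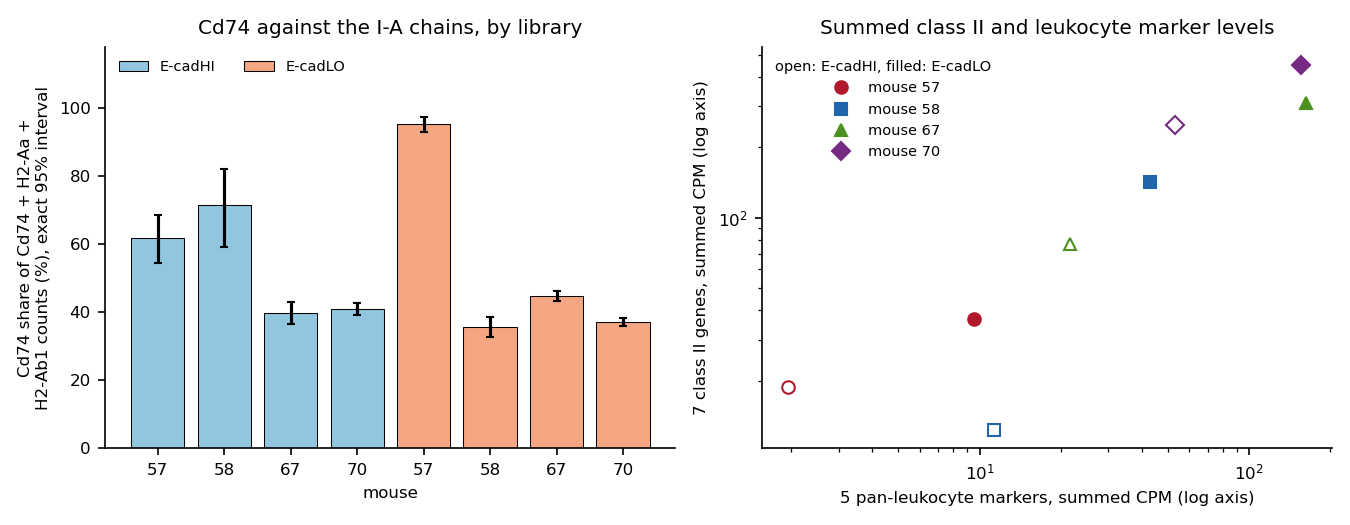
Left, bars give the Cd74 share of the counts of Cd74, H2-Aa and H2-Ab1 in each library, with exact 95% intervals that cover counting error only. The E-cadLO library of mouse 57 is at 95.5%, above the other 7. Right, the summed level of the 7 class II genes is plotted against that of 5 pan-leukocyte markers on log axes, where E-cadLO libraries (filled) lie to the right of and above the E-cadHI library (open) of the same mouse.

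In bulk libraries, fewer cells of a type and less RNA per cell cannot be told apart, and the levels of leukocyte markers are therefore given beside the class II genes. The 5 pan-leukocyte markers (Ptprc, Cd53, Coro1a, Laptm5, Cd52) summed to 1.95 to 52.9 CPM in E-cadHI and 9.56 to 162 CPM in E-cadLO libraries and were higher in E-cadLO cells in 4 of 4 mice. None of the 5 passed without the block, and 1, Cd53, passed with it. Ptprc ranged from 0.139 to 13.5 CPM in E-cadHI libraries and from 0 to 61.9 CPM in E-cadLO libraries. The 10 microglia markers summed to 59.2 to 134 and 138 to 436 CPM, again higher in E-cadLO cells in 4 of 4 mice, none was at 0 in every library, and 3 of the 10, P2ry12 and Cx3cr1 among them, passed with the block and 0 without. P2ry12, named after its values were seen, was at 2.29 to 8.40 CPM in E-cadHI and 5.04 to 40.8 CPM in E-cadLO libraries. The part of these cells in the class II levels was not tested.

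The summed class II level was 1.08 to 9.68 times the pan-leukocyte sum in the E-cadHI libraries and 1.91 to 3.83 times in the E-cadLO libraries. These ranges overlapped, and the ratio was lower in E-cadLO than in E-cadHI cells of mice 57, 67 and 70 and higher in those of mouse 58. Of the 11 macrophage and monocyte markers, 9 were tested, 1 (Fcgr1) passed with the block, 7 had a fitted fold change toward E-cadLO cells, and the median log2 fold change was 1.78. The sum of the 11 was lower in E-cadLO cells in 4 of 4 mice (481 to 1130 against 217 to 748 CPM) through Cd14, and without Cd14, a setting chosen after seeing the data, it was higher in E-cadLO cells in 4 of 4 mice (28.6 to 120 against 53.9 to 241 CPM). The 10 dendritic cell markers summed to 8.27 to 18.4 and 34.3 to 126.5 CPM and were higher in E-cadLO cells in 4 of 4 mice. Of these, 5 were tested and 1, Itgax, passed with the block. Itgax was at 100 CPM in the E-cadLO library of mouse 57 and at 19.6 to 24.2 CPM in the other 3, while Xcr1 and Clec9a, which mark cross-presenting dendritic cells, did not exceed 1.62 and 1.28 CPM in any library. Cd209a and Clec10a, named after their values were seen, reached 16.65 and 4.36 CPM in the E-cadLO library of mouse 67. Its E-cadHI library had 0.593 and 0.148 CPM of them. Neither was tested, and neither was higher in E-cadLO cells of mouse 58, nor Cd209a in those of mouse 57. Without Itgax, also chosen after seeing the data, the dendritic cell sum was 7.37, 15.5, 12.4 and 16.02 CPM in the E-cadHI libraries of mice 57, 58, 67 and 70 and 26.1, 18.1, 32.7 and 14.1 CPM in their E-cadLO libraries, so that mouse 70 turned. Zbtb46, the next by level, was lower in E-cadLO cells of mice 58, 67 and 70 (9.96, 6.67 and 8.58 CPM against 6.03, 4.30 and 5.57 CPM). In mouse 57 it was higher in E-cadLO cells (5.63 CPM in E-cadHI against 21.2 CPM in E-cadLO).

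Among the 8 B cell markers, Ms4a1, Cd79a and Pax5 did not exceed 0.348 CPM in any library. Ighm was the exception, at 0.347 to 5.69 CPM in E-cadHI and 2.45 to 25.6 CPM in E-cadLO libraries, and it passed with the block. None of the 9 T and NK cell markers had enough counts to be tested, and their sum was at most 2.71 CPM in E-cadHI and 17.98 CPM in E-cadLO libraries. The 8 epithelial markers, with Krt18 and Krt8 at the top, summed to 6871 to 9541 and 5225 to 13870 CPM. The sum was higher in E-cadLO cells in 2 of 4 mice, 4 of the 8 had a fitted fold change above 0, and none passed in either fit. Epcam, named after its values were seen, was at 1340, 1130, 1287 and 1307 CPM in the E-cadHI libraries of mice 57, 58, 67 and 70. It was lower in each of their E-cadLO libraries, at 289, 1098, 824 and 790 CPM. Marker sums of other brain and stromal cells were also higher in E-cadLO cells in 4 of 4 mice for oligodendrocytes (552 to 8541 against 1308 to 34220 CPM), neurons (1.11 to 87.5 against 24.7 to 361 CPM), endothelial cells (40.7 to 75.0 against 54.1 to 95.9 CPM) and fibroblasts (6.30 to 19.3 against 15.2 to 1032 CPM), in 3 of 4 for astrocytes and in 2 of 4 for neutrophils.

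The 10 genes whose level over the 8 libraries was most like the mean of the class II genes, each centred and scaled, were Ms4a6b (Pearson r = 0.984), Amica1 (0.976), Cd53 (0.976), Nrros (0.970), Fgl2 (0.968), Ms4a4c (0.967), Snx20 (0.967), Plac8 (0.960), Gas5 (0.957) and Cd86 (0.957). The libraries of a mouse share its tumor, so the 8 points are not independent and no test is given. Ms4a6b, the closest, was at 1.25, 1.61, 4.30 and 11.2 CPM in the E-cadHI libraries and at 2.0, 7.65, 15.5 and 16.9 CPM in the E-cadLO libraries, and it did not pass (adjusted p = 0.494, edgeR). Cd86, a costimulatory ligand for T cells, was at 0 counts in the E-cadLO library of mouse 57, as H2-DMb1 was. Among the class II genes themselves, H2-Aa followed the mean of the other 6 most closely (r = 0.959) and Ciita least (r = 0.644).

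Other class II genes had low counts. Of the 5 found in the table (H2-DMb2, H2-Ob, H2-Ea-ps, H2-Oa and H2-Eb2), 2 were tested, neither passed in either fit, and their median log2 fold change was 1.49. H2-DMb2, the second beta chain of H2-DM, was at 0.486 to 2.71 CPM in E-cadHI libraries, and in E-cadLO libraries it had 0 counts in mouse 57 and reached 7.85 CPM in mouse 67. It thus had no counts in the library in which H2-DMb1 had none, with the uncertainty of their shared sequence. H2-Ob, the beta chain of the H2-O modulator, was at 0 to 1.31 and 0 to 4.04 CPM. H2-Ea-ps, which stands for the I-E alpha chain and is a pseudogene in the reference strain, had at most 1.14 CPM in E-cadHI and 1.41 CPM in E-cadLO libraries.

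Of 18 listed factors that act at class II promoters or induce Ciita, 17 were tested, none passed without the block, and 1 passed with it. The median log2 fold change of the 17 was 0.17. The promoter subunits Nfyb (0.36), Nfyc (0.09) and Rfxank (-0.06) had adjusted p of 0.384, 0.821 and 0.900 (edgeR), and the interferon signalling genes Jak1 (0.23), Ifngr1 (0.14), Ifngr2 (0.17) and Irf1 (0.38) did not pass either. The other subunits of these complexes, named after their values were seen, were Nfya (-0.84) and Rfx5 (-0.49), both at a lower level in E-cadLO cells in 4 of 4 mice, and Rfxap (-0.12), and none of the 3 passed in either fit. The gene that passed with the block was Irf8, a myeloid transcription factor named here after its values were seen, with a log2 fold change of 2.38 (SE 0.37, adjusted p = 0.0392, edgeR with the replicate block). It was at 0.764, 0.996, 4.30 and 5.34 CPM in E-cadHI and at 3.26, 8.93, 24.5 and 18.9 CPM in E-cadLO libraries, higher in E-cadLO cells in each mouse, with overlapping groups. Ifng, the gene of interferon gamma, had 0 counts in the 4 E-cadHI libraries and at most 6 counts in an E-cadLO library.

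All 10 genes of antigen processing and class II turnover found in the table were tested. None passed without the block, 2 passed with it, and the median log2 fold change was 0.07. The lysosomal proteases Ctsb (-0.22), Ctsd (0.06), Ctsz (0.00) and Ctsl (0.18) and the intramembrane protease Sppl2a (-0.25), which clears Cd74 fragments, did not pass in either fit. Legumain (Lgmn), a lysosomal endopeptidase, was at 80.5, 68.4, 93.8 and 171 CPM in the E-cadHI libraries and at 161, 115, 285 and 376 CPM in the E-cadLO libraries. It was higher in E-cadLO cells in every mouse and passed with the block (log2 fold change 1.12, SE 0.18, adjusted p = 0.0460, edgeR). Cathepsin S (Ctss), which makes the last cut in the invariant chain, was named after its values were seen. It was at 6.81, 37.2, 58.8 and 168 CPM in E-cadHI libraries and at 19.1, 90.8, 394 and 510 CPM in E-cadLO libraries, and it passed with the block (1.78, SE 0.26, adjusted p = 0.0339, edgeR). As for Cd74, the E-cadHI library of mouse 70 lay above the E-cadLO libraries of mice 57 and 58.

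Of the 6 costimulatory and coinhibitory ligands, 4 were tested and none passed in either fit, with a median log2 fold change of 1.55. Cd274, the ligand PD-L1, was at 4.20 to 6.74 CPM in E-cadHI and 5.63 to 17.4 CPM in E-cadLO libraries (log2 fold change 0.85, adjusted p = 0.387, edgeR). Cd86 was at 0.460 to 2.89 and 0 to 12.8 CPM and Cd40 at 0.139 to 2.71 and 1.04 to 13.8 CPM. Cd80 and Pdcd1lg2 had at most 4 counts in any library.

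The genes of class I presentation, which display peptides from inside the cell to CD8+ T cells, had fold changes on the other side. Of the 12, all tested, none passed in either fit, 1 had a fitted fold change above 0 (Nlrc5, 0.00), and the median log2 fold change was -0.44, beside 1.41 for the class II genes. The class I heavy chains H2-D1 (-0.41, adjusted p = 0.475) and H2-K1 (-0.47, adjusted p = 0.426) and B2m (-0.27, adjusted p = 0.667) did not pass with edgeR. The proteasome subunit Psmb8 was at 818, 518, 531 and 707 CPM in the E-cadHI libraries and at 257, 490, 378 and 415 CPM in the E-cadLO libraries, which was lower in each mouse (log2 fold change -0.74, adjusted p = 0.298, edgeR). In mouse 58, in which H2-Aa and H2-Ab1 differed most, H2-D1, H2-K1 and B2m were higher in E-cadLO cells. Nlrc5, the counterpart of Ciita for class I genes, was at 6.08 to 28.0 and 6.98 to 30.3 CPM. Whether the class I and class II genes differ in their fold changes was not tested.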

How the data were processed

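RNA of FACS-sorted E-cadHI and E-cadLO cells of 4 mice was measured in 8 mRNA libraries. The authors sequenced single reads, mapped them with HISAT2 2.1.0 to GRCm38 and deposited whole-number counts per gene without normalization. The paper names Icount and the submitters' processing notes HTSeq for the counting, and the use of strand and the handling of reads that match several genes are not given in the sources used here. Samples were grouped by the E-cadherin status of the labels. Entries without a gene identifier, 0.0636 to 0.0954% of the counts of a library, were left out, and 31719 of 31894 identifiers matched GENCODE M21.

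From the counts, edgeR 4.0.16 (R 4.3.3) was run with TMM normalization, filterByExpr by group and quasi-likelihood tests on the 8 libraries together, adjusted by Benjamini-Hochberg over 13598 genes. DESeq2 1.42.0, its size factors, other filters, a robust fit, libraries and mice left out and other pseudocounts were alternatives. The labels give both libraries of an animal the same mouse number, and their deviations from the group means correlated by 0.275 to 0.698 in the 4 same-mouse pairs (-0.516 to 0.153 in the 12 others), so the mouse was also used as a replicate block. Without the block, the p-values measure the spread between libraries of a group and do not use the pairing. With the block, they measure the spread of the differences within these mice. The mice carry tumors of one organoid source. No 2 libraries agreed within sampling noise (smallest chi-square per degree of freedom 27.7). Within-mouse ratios on the log2 scale use CPM plus 0.5, which understates the change of low genes, and fold ratios with exact intervals use counts alone. The steps were tested on simulated data. Tables and figures were made with Python 3.11.15, pandas 2.3.3, scipy 1.17.1 and matplotlib 3.10.9.

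The 7 genes, the pathway and marker lists, written by hand, and the tests were chosen with earlier results of these data known. Named genes are the 7 genes, at most 6 of a pathway list and the 2 of a marker list with the highest mean CPM, defining markers near 0, the 10 genes most like the class II mean, and genes said to be chosen after their values were seen. Some other list genes are named with their ranges to complete a list. A few list genes are counted with their list and not reported singly here.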

Additional observations from a re-analysis of the deposited data

Results flagged for a closer look

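In 29 groups of 4 values, of which chance would mark about 1.45, a library stood apart from the other 3 of its group by Dixon's test in 2, both times the E-cadLO library of mouse 57. Its Cd74 share of the counts of Cd74, H2-Aa and H2-Ab1 was 95.5%, beside 35.7 to 44.8% in the other E-cadLO libraries. The gap to the nearest was 0.847 of the whole range, above the 95% critical value for 4 samples. Its summed class II level was 0.215 times that of the microglia markers, beside 0.912 to 1.03 times in the other 3, with a gap of 0.851 of the range. The same library held 496 CPM of Col1a1, 100 CPM of Itgax and 0 counts of Ptprc.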

How the results depend on the processing

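All 7 class II genes kept a fold change toward E-cadLO cells in most of the 23 alternative fits, H2-Aa, H2-DMa and Cd74 in all 23, H2-Ab1 in all 22 and H2-Eb1 in all 18 in which they were tested. The median of the class II genes was 1.52 with the replicate block. The number that passed was 0 in the fit as reported and 1, Cd74, in DESeq2 with the replicate block; in the block fits with a mouse left out it was 0 to 1, with Cd74 passing only without mouse 57. Over the alternatives the adjusted p of Cd74 ran from 1.778e-05 to 0.772. Ciita turned to -0.061 with the replicate block without mouse 58, to -0.051 with the block without mouse 67 and to -0.11 without the E-cadLO library of mouse 67 (with a single library or mouse left out it was at most 0.37), and H2-DMb1 to -0.081 with the block without mouse 67. The median of the class II genes ran from 0.88 without mouse 67 to 2.23 without the E-cadHI library of mouse 70. Over all genes, 0 passed as reported, 99 with the replicate block, 416 with DESeq2, 1211 with DESeq2 and the block, and 23 with no filter on low counts. With the block and 1 mouse left out, 0 to 449 passed. These were 449 of 13905 genes tested without mouse 57, 66 without mouse 58, 0 without mouse 67 and 2 without mouse 70. Without the block, 13 passed when the E-cadLO library of mouse 70 was left out. With at least 10 counts required in every library, H2-Ab1, H2-Eb1 and H2-DMb1 were not tested. Depth limits H2-Eb1 most, with 1 to 70 counts in a library. The causes were not tested. The within-mouse means kept their direction with pseudocounts of 0.1 and 2 CPM.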
